A study of Danio rerio with 6 samples.

Results

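Hox genes encode homeodomain transcription factors that lie in clusters, and the order of the genes within a cluster follows the order in which they are used along the body axis, with low paralog numbers towards the head and high numbers towards the tail. Zebrafish (Danio rerio) kept extra clusters from a genome duplication in the fish lineage, so many Hox genes have an a and a b copy. In the mouse, Hox11 paralogs act with Pax2 and Eya1 in the embryonic kidney, and regulatory sequence of Hoxb7 is active in the nephric and collecting ducts. Hox genes are also used in blood stem cells, which in adult fish sit in the kidney marrow around the nephrons.

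The Hox genes described here are all 47 rows, of 31953 genes in the deposited count table, whose symbol begins with hox, a cluster letter from a to d and a paralog number. They comprise 11 HoxA, 15 HoxB, 14 HoxC and 7 HoxD genes, of which 13 have paralog numbers 1 to 4, 12 have numbers 5 to 8 and 22 have numbers 9 to 13. For 32 of them the table of names gives the symbol in capitals, as for a human gene, which does not say which zebrafish copy is meant. A symbol on 2 rows, the case for HOXA11, HOXB5, HOXC6 and HOXC12, is printed with its Ensembl identifier.

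The data are 6 RNA-seq libraries from adult fish that all carry the transgene Tg(slc12a3:mCherry), a red reporter under the promoter of the thiazide-sensitive sodium-chloride cotransporter gene, active in the distal late (DL) segment of the nephron. The mesonephros is the kidney of adult fish. The DL group (mCh+) holds 3 libraries from segments dissected by hand, and the rest group (mCh-) holds 3 libraries from the mesonephros without those segments, with its other nephron segments, blood-forming tissue, vessels and stroma. Pooling of animals, sex and exact age are not given in the labels. Nor is it stated that each library came from its own fish, and p-values therefore reflect the spread among these 6 samples alone, part of which may be technical. The comparison asks how Hox transcripts differ between a single nephron segment and its surroundings, and in such bulk samples fewer cells of a type and less RNA per cell cannot be told apart.

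Total counts ran from 9320756 to 22776825 per library, and the factors of the TMM scaling (a trimmed mean of M values) stood apart in DL replicate 1 (0.520) and rest replicate 3 (0.533), against 1.14 to 1.80 in the others. SLC12A3, the gene of the reporter's promoter, had 250.5, 904.5 and 32.9 CPM (counts divided by the TMM-scaled library size, in parts per 1000000) in DL libraries 1 to 3, against 41.9, 30.4 and 43.0 CPM in rest libraries 1 to 3. For this gene the library labelled DL replicate 3 was no higher than the rest, although its related cotransporter gene slc12a10.3 stood at 355.5 CPM there and at no more than 44.6 CPM in the rest. The same library held 11220 CPM of STC1_ENSDARG00000058476, the stanniocalcin hormone gene of the corpuscles of Stannius, against at most 343 CPM in each of the other 5 libraries.

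Summed HoxB counts were higher in the DL libraries, and HOXB8 was the gene behind most of the gap. Summed over its 15 genes, HoxB stood at 323, 383 and 125 CPM in DL libraries 1 to 3 and at 110, 50.3 and 24.1 CPM in rest libraries 1 to 3. Every DL library was above every rest library. With the library total as the only scaling, the HoxB sums were 168, 445 and 142 CPM in DL and 198, 75.6 and 12.8 CPM in the rest, and the groups overlapped. Without HOXB8, the other 14 HoxB genes summed to 125, 177 and 58.3 CPM in DL and to 65.6, 40 and 18 CPM in the rest, where DL replicate 3 lay below rest replicate 1. The 32 genes of HoxA, HoxC and HoxD together stood at 49.5, 52.7 and 48.2 CPM in DL and at 59.7, 51.8 and 30.5 CPM in the rest, with overlapping groups. Their mean was 50.1 ± 2.33 CPM for DL libraries and 47.3 ± 15.1 CPM for rest libraries (SD, n = 3 each). With the library total as the only scaling the means of HoxA, HoxC and HoxD together were 47.2 CPM for DL and 67.0 CPM for the rest.

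The make-up of the Hox counts within a library does not depend on that scaling. HoxB took 86.7%, 87.9% and 72.2% of all Hox counts in DL libraries 1 to 3, against 64.9%, 49.3% and 44.1% in rest libraries 1 to 3. Exact binomial 95% intervals, which cover counting error only, ran from 70.1 to 74.2% for the lowest DL library and from 63.6 to 66.1% for the highest rest library. The groups did not overlap. HOXB8 alone took 53.1%, 47.2% and 38.6% of the Hox counts in DL and 26.3%, 10.1% and 11.2% in the rest, with intervals of 36.4 to 40.9% in DL replicate 3 and 25.2 to 27.5% in rest replicate 1. The other 14 HoxB genes took 33.6%, 40.7% and 33.6% in DL and 38.6%, 39.2% and 32.9% in the rest, with overlapping groups and means of 36.0% in DL and 36.9% in the rest. In shares of this total, the HoxB gap thus lay in the HOXB8 share. In CPM the other 14 HoxB genes also had a higher mean sum in DL, 120 against 41.2 in the rest, with overlapping groups. Shares of 1 total are tied to each other, and a larger HOXB8 share lowers all others. Of the Hox counts other than HOXB8, HoxB took 71.7%, 77.1% and 54.7% in DL and 52.3%, 43.6% and 37.1% in the rest, without overlap but with DL replicate 3 close to rest replicate 1.

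HoxC took 8.20%, 8.70% and 14.6% of all Hox counts in DL and 21.0%, 31.7% and 22.0% in the rest. The summed HoxC levels overlapped, at 30.6, 37.9 and 25.3 CPM in DL and 35.7, 32.3 and 12 CPM in the rest. Their mean was higher in DL on this scale (31.3 CPM, against 26.7 CPM for the rest) and lower with the library total as the only scaling (29.6 CPM for DL, against 39.7 CPM for the rest). HoxA took 3.21%, 2.5% and 7.42% of Hox counts in DL and 8.43%, 15.7% and 22.7% in the rest, and its shares overlapped once HOXB8 was left out of the total. HoxD shares overlapped between the groups. Long transcripts give more counts, so these shares are compared between libraries and not between genes. The smallest pool was rest replicate 3, with 322 Hox counts, against 11540 in DL replicate 2.

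**Figure D1:**
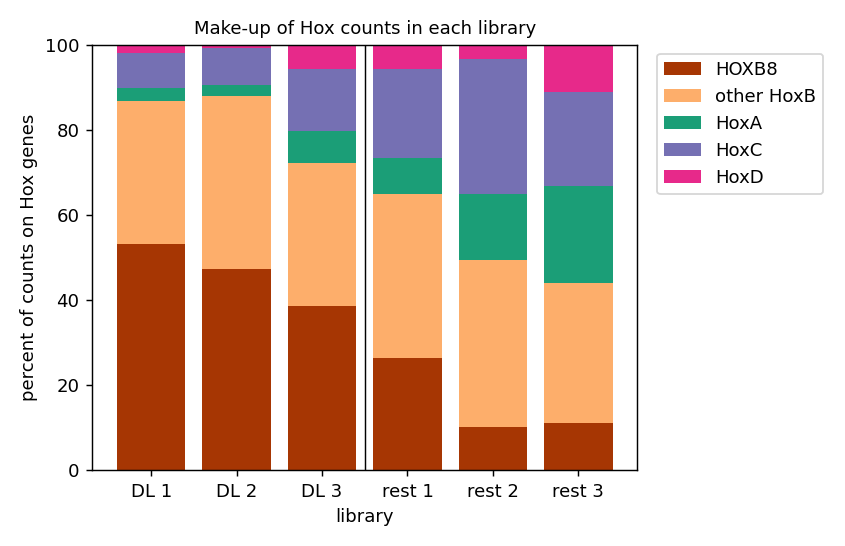
Share of all Hox counts, in percent, taken by HOXB8, by the other HoxB genes and by HoxA, HoxC and HoxD in each library (bars; DL left, rest right). HOXB8 fills 38.6 to 53.1% of the bar in the DL libraries and 10.1 to 26.3% in the rest libraries, and the other HoxB genes fill 33.6 to 40.7% in DL and 32.9 to 39.2% in the rest.

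By paralog number the gap between the groups was widest for numbers 5 to 8, and HOXB8 made up most of it. Genes with numbers 5 to 8 summed to 263, 270 and 101 CPM in DL and to 75.2, 35.2 and 20.5 CPM in the rest, and they took 63.6 ± 6.35% of Hox counts in DL libraries and 38.8 ± 4.96% in rest libraries (SD, n = 3 each). Without HOXB8 the other 11 genes of this class summed to 65.3, 63.8 and 34.1 CPM in DL and to 30.4, 24.9 and 14.4 CPM in the rest, without overlap. With the library total as the only scaling they overlapped, at 33.9, 74.1 and 38.7 CPM in DL and 54.4, 37.5 and 7.65 CPM in the rest. They took 17.3 ± 2.54% of all Hox counts in DL and 22.9 ± 4.46% in the rest, and of the Hox counts other than HOXB8 they took 32.4 ± 4.83% in DL and 27.0 ± 2.74% in the rest, with overlapping groups on both scales. Numbers 1 to 4 had a mean summed level of 53.9 ± 25.5 CPM over DL libraries and 33.3 ± 14.1 CPM over rest libraries, and numbers 9 to 13 had 62.2 ± 23.7 CPM over DL libraries and 32 ± 21.3 CPM over rest libraries, with overlapping groups. As shares, genes with numbers 1 to 4 took 17 ± 4.84% of Hox counts in DL and 32.5 ± 10.3% in the rest. Genes with numbers 9 to 13 took 19.4 ± 1.67% in DL and 28.7 ± 5.70% in the rest. Both shares are lowered in DL by the larger HOXB8 share. Of the Hox counts other than HOXB8, numbers 1 to 4 took 31.4 ± 6.03% in DL and 38.2 ± 8.91% in the rest. Numbers 9 to 13 took 36.3 ± 1.81% of these in DL and 34.8 ± 10.1% in the rest, and for both classes the groups overlapped. At the tail end of the clusters little was found in either group. Hox13 genes summed to at most 1.04 CPM in a DL library and at most 2.34 CPM in a rest library, and Hox12 genes to at most 1.25 CPM in a DL library and 0.852 CPM in a rest library.

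Of the 47 Hox genes, 22 passed the filter on low counts (edgeR's filterByExpr, which asks for enough counts in at least 3 libraries). In edgeR's quasi-likelihood test over all 17083 genes 0 Hox genes passed an adjusted p of 0.05 in either direction, where 0.0644% of all genes were higher in DL and 0% lower. With an unadjusted p under 0.05, 5 Hox genes were higher in DL, all of them HoxB (HOXB3, HOXB6, HOXB7, HOXB8 and HOXB9), and 1 lower, HOXC10, where 4.09% of all genes were higher and 2.73% lower. DESeq2 called 2 Hox genes higher, HOXB8 and HOXB9, and 0 lower, with 1.37% of its genes called higher and 0.342% lower. Of the 22 genes 15 had positive fold changes, against 46.5% of all genes tested. Their median log2 fold change was 0.38 (DL minus rest), against -0.07 over all genes tested; with the library total as the only scaling it was -0.22, against -0.50 over all genes. A gene can pass the filter through the group where it is high, so these counts describe the genes tested and not all 47. The count of 5 was 1 when libraries were scaled by their totals alone, and 3 without DL replicate 2 or without rest replicate 3.

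**Figure D2:**
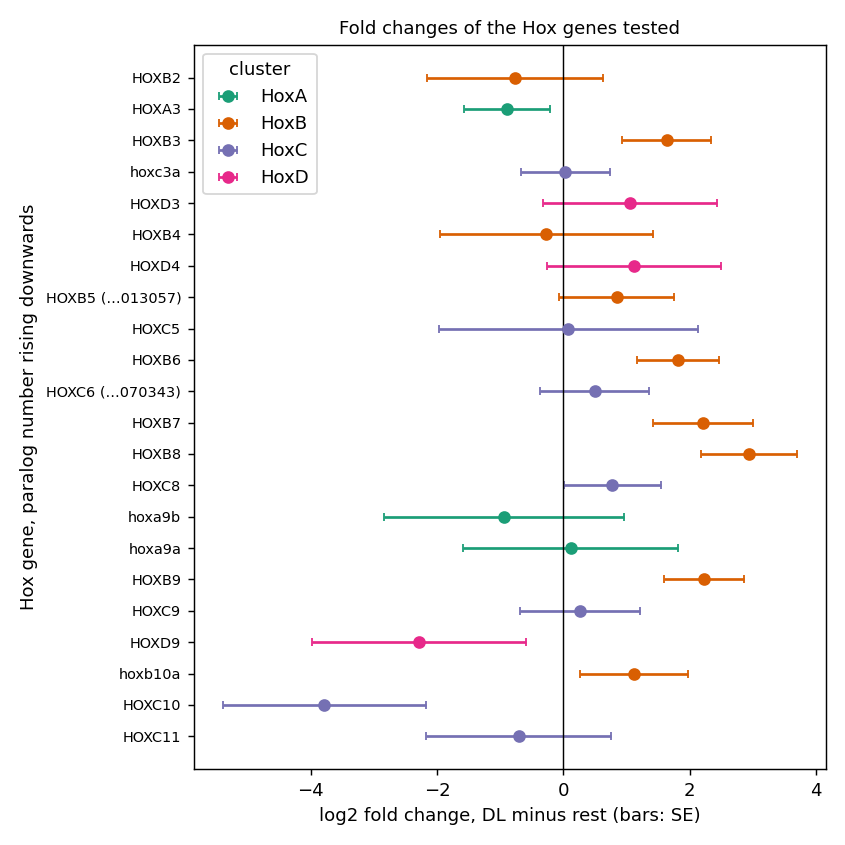
Log2 fold changes of the 22 tested Hox genes, DL minus rest (points), with standard errors (bars), by paralog number and coloured by cluster. HoxB genes from HOXB6 to hoxb10a lie to the right of 0, with HOXB8 farthest at 2.94, and HOXC10 lies farthest to the left at -3.78.

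HOXB8 belongs to a paralog group that in vertebrate embryos is used in the trunk and spinal cord. It stood at 198, 206 and 67.0 CPM in DL libraries 1 to 3, against 44.8, 10.3 and 6.10 CPM in rest libraries 1 to 3. All DL libraries were above all rest libraries, and DL replicate 3 and rest replicate 1 came nearest to each other. HOXB8 averaged 157 ± 78.1 CPM over the DL libraries and 20.4 ± 21.2 CPM over the rest libraries (SD, n = 3 each), a log2 fold change of 2.94 ± 0.76 (SE). It did not pass edgeR's test over all genes (adjusted p = 0.258, unadjusted p = 0.00239), and DESeq2 gave an adjusted p of 0.00282. Over 13 alternatives the log2 fold change stayed positive, between 2.07 and 4.26. With the library total as the only scaling, HOXB8 and the 3 other Hox genes without overlap in the DL direction had overlapping groups.

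HOXB9, its neighbour on the tail side, stood at 35.0, 44.1 and 16.2 CPM in DL and at 12.2, 5.09 and 2.88 CPM in the rest. These groups did not overlap either. This gave a log2 fold change of 2.22 ± 0.64 (SE), with an adjusted p of 0.331 by edgeR and 0.0454 by DESeq2. HOXB7, on the head side and named above for its activity in mouse ducts, stood at 29.9, 16.4 and 5.39 CPM in DL and at 7.12, 1.84 and 2.03 CPM in the rest. DL replicate 3 lay below rest replicate 1, so the HOXB7 groups overlapped. Its log2 fold change was 2.20 ± 0.79 (SE; edgeR adjusted p = 0.515).

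HOXB6 stood at 11.7, 23.1 and 8.51 CPM in DL and at 5.72, 3.90 and 2.54 CPM in the rest, without overlap, with a log2 fold change of 1.82 ± 0.65 (SE; edgeR adjusted p = 0.515). HOXB3, a gene of the head end of the cluster, stood at 21.7, 58.9 and 14.9 CPM in DL and at 12.97, 14.9 and 2.71 CPM in the rest. DL replicate 3, at 14.94 CPM, lay just above rest replicate 2, at 14.89 CPM. The log2 fold change of HOXB3 was 1.63 ± 0.70 (SE; edgeR adjusted p = 0.672), and 0.83 without DL replicate 2. In all, the groups did not overlap for 4 tested Hox genes with higher DL values and for 1 with lower DL values, where this held for 6.82% and 6.28% of all genes tested.

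The other 4 tested HoxB genes had overlapping groups. The gene hoxb10a, which has no counterpart of the same number in the mammalian HoxB cluster, stood at 20.0, 27.8 and 8.79 CPM in DL and at 18.8, 6.01 and 0.847 CPM in the rest, a log2 fold change of 1.12 ± 0.85 (SE; edgeR adjusted p = 0.960). It was 2.42 without rest replicate 1 and 0.28 with the library total as the only scaling. HOXB5_ENSDARG00000013057 stood at 5.14, 3.40 and 3.69 CPM in DL and at 3.44, 1.79 and 1.53 CPM in the rest, with 0.84 ± 0.91 (SE). HOXB2 and HOXB4, with log2 fold changes of -0.77 ± 1.40 and -0.27 ± 1.68 (SE), had overlapping groups. Read along the cluster, the log2 fold changes were -0.77 for HOXB2, 1.63 for HOXB3, -0.27 for HOXB4 and 0.84 for this HOXB5 copy. They were then 1.82 for HOXB6, 2.20 for HOXB7, 2.94 for HOXB8, 2.22 for HOXB9 and 1.12 for hoxb10a. From HOXB3 on the standard errors of neighbours overlapped, and differences between neighbours in fold change were not tested.

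**Figure D3:**
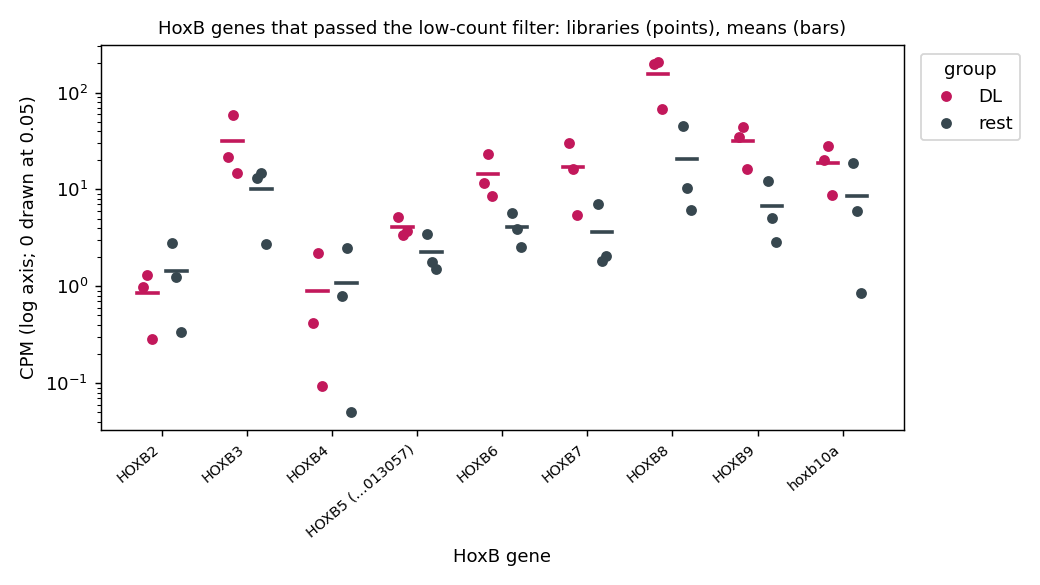
CPM on a log axis of the 9 HoxB genes that passed the low-count filter, in each library (points) and as group means (horizontal bars), DL left of rest for each gene. For HOXB8 the DL points lie at 67.0 to 206 CPM and the rest points at 6.10 to 44.8 CPM.

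HOXB8 was also set against its neighbours within each library. There were 5.65, 4.67 and 4.14 HOXB8 counts per HOXB9 count in DL libraries 1 to 3, against 3.69, 2.02 and 2.12 in rest libraries 1 to 3. Per HOXB7 count there were 6.63, 12.6 and 12.4 in DL and 6.29, 5.59 and 3 in the rest. The DL libraries were also above the rest libraries in counts of HOXB8 per count of HOXB3, HOXB6 and hoxb10a, in places narrowly, as for HOXB6 with 7.87 in DL replicate 3 and 7.82 in rest replicate 1. These quotients need no scaling between libraries. They reuse the counts behind the fold changes, among which that of HOXB8 was the highest of the tested Hox genes. Higher quotients in DL are therefore no separate support for HOXB8. With 3 against 3 libraries no exact permutation test that counts both directions can go below 0.1, and none was run on these quotients.

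Some genes of tubule and duct epithelium also had higher sums in the DL libraries. A list of 11 such genes, chosen after the data were seen, summed to 3151, 4558 and 3735 CPM in DL and to 1768, 1455 and 1621 CPM in the rest, and 10 of the 11 had positive log2 fold changes. HOXB8 CPM divided by that sum was 0.0628, 0.0452 and 0.0179 in DL and 0.0253, 0.00707 and 0.00376 in the rest. On this scale DL replicate 3 lay below rest replicate 1, so the groups overlapped. The largest member of the list was CDH17 in DL replicates 1 and 2 (1666 and 2379 CPM) and krt8 in DL replicate 3 (1300 CPM). The keratin genes krt8 and krt18a.1 had log2 fold changes of only 0.099 and 0.125. Dividing by a list picked with its values known, and mostly higher in DL, lowers DL values against the rest. The overlap therefore does not show what lay behind the HOXB8 difference. Taken as a list, genes of the proximal tubule did not share the higher DL sums. Of that list 11 of 13 tested genes had negative log2 fold changes, with a median of -0.48. Its sums overlapped, at 1171, 1295 and 788 CPM in DL and 1602, 1102 and 683 CPM in the rest. They include slc9a3.1, 1 of the 2 genes with a positive change, with a log2 fold change of 2.92 (edgeR adjusted p = 0.292). It stood at 380, 551 and 48.4 CPM in DL and at 67.5, 40.4 and 21.2 CPM in the rest. The part of epithelial content in the HoxB differences was not tested.

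Among HoxC genes, HOXC10 had the opposite sign to HOXB8. It had 2, 2 and 1 counts in DL libraries 1 to 3 and 22, 34 and 21 counts in rest libraries 1 to 3, or 0.278, 0.0756 and 0.0946 CPM in DL and 0.670, 1.84 and 3.56 CPM in the rest. Each rest library was above each DL library. The log2 fold change was -3.78 ± 1.61 (SE; edgeR adjusted p = 0.662, unadjusted p = 0.0376) and rests on 5 counts in DL. The unadjusted p was above 0.05 with limma-voom, with the library total as the only scaling, with every gene kept, and without any 1 of DL replicate 2, rest replicate 2 and rest replicate 3.

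Most lists of cell type markers had mainly negative log2 fold changes as well, where 9137 of all 17083 genes tested were negative. Negative were 10 of 10 tested myeloid genes, 8 of 9 of endothelium and 9 of 11 of blood progenitors. The same held for 11 of 13 proximal tubule genes and 7 of 9 podocyte genes. Positive were 4 of 4 tested multiciliated genes and 5 of 8 tested distal late genes, SLC12A3 among the latter. All 10 tested neural and Schwann genes had negative log2 fold changes, and the list summed to 37.8, 24.7 and 60.9 CPM in DL and to 213, 121 and 168 CPM in the rest. TH and DBH, which make catecholamines, had 0 counts in every DL library. All 15 stromal and matrix genes were negative too. Their sums overlapped, at 2251, 235.5 and 1132 CPM in DL and 1968, 1512 and 3939 CPM in the rest. Whether any of these cell types contributes to HOXC10 was not tested.

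The other 6 tested HoxC genes had log2 fold changes between -0.71 and 0.77 and overlapping groups. HOXC8 stood at 12.2, 5.56 and 6.81 CPM in DL and at 7.61, 5.20 and 1.36 CPM in the rest, which is the same paralog number as HOXB8 with a log2 fold change of 0.77 ± 0.77 (SE; edgeR adjusted p = 0.999). HOXC6_ENSDARG00000070343 stood at 5.84, 7.67 and 6.43 CPM in DL and at 3.99, 9.37 and 0.678 CPM in the rest. HOXC9 stood at 2.08, 7.60 and 1.89 CPM in DL and at 5.08, 3.03 and 1.53 CPM in the rest. For hoxc3a, at 4.17, 13.1 and 5.11 CPM in DL and 9.07, 9.26 and 3.56 CPM in the rest, the log2 fold change was 0.03 ± 0.71 (SE). HOXC5 and HOXC11 had fold changes of 0.08 ± 2.06 and -0.71 ± 1.46 on the log2 scale (SE), with errors larger than the changes.

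In HoxA, HOXA3 had a count in all 6 libraries. It stood at 3.34, 3.06 and 7.57 CPM in DL and at 7.15, 10.1 and 8.64 CPM in the rest. DL replicate 3 lay among the rest libraries. HOXA3 had a log2 fold change of -0.89 ± 0.68 (SE; edgeR adjusted p = 0.960), against 1.63 for HOXB3, its paralog in the HoxB cluster; the difference between them was not tested. Both hoxa9 copies passed the filter. The gene hoxa9a stood at 3.06, 0 and 1.32 CPM in DL and at 1.92, 0.217 and 1.86 CPM in the rest, and hoxa9b at 0, 0 and 1.70 CPM in DL and at 0.548, 2.17 and 0.508 CPM in the rest. In mammals HOXA9 acts with MEIS1 in blood stem and progenitor cells.

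In HoxD only 3 genes were tested, and the errors were large. HOXD3 and HOXD4, which may share reads, had log2 fold changes of 1.05 ± 1.38 and 1.12 ± 1.37 (SE). That of HOXD4 was 0.039 without DL replicate 1 and -0.18 with limma-voom. HOXD9 stood at 0.278, 0 and 1.14 CPM in DL and at 4.75, 0.866 and 1.19 CPM in the rest, with -2.29 ± 1.69 (SE; edgeR adjusted p = 0.955). Its sign was negative under all 13 alternatives, with a range of -4.26 to -1.12.

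The remaining 25 Hox genes did not pass the filter, and none averaged more than 2.53 CPM in DL or 1.52 CPM in the rest. Of these, 14 have paralog numbers 9 to 13. HOXC12_ENSDARG00000070352, HOXD12 and hoxd13a had 0 counts in all 6 libraries, which allows a level of up to 0.132 to 0.322 CPM of the deposited total, depending on the library. HOXB13 had 1 count each in rest replicates 2 and 3 and none elsewhere, and hoxb1a had 2 counts in rest replicate 1 only. Paralog group 13 genes pattern the tail and the outer fin, and group 1 genes the hindbrain.

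Many of these low counts came from a single library. Of the 22 filtered genes with any count, 17 had at least 50% of their counts in 1 library. In counts not scaled for depth, this also held for 9 of the 22 tested Hox genes, HOXB8 among them through DL replicate 2. HOXA5 had 196 counts in DL replicate 2, against 0 and 2 counts in DL replicates 1 and 3 and 16 counts over the rest libraries. The gene hoxb8b had 27 counts in rest replicate 3, 0 in the other rest libraries, and 0, 8 and 2 in DL libraries 1 to 3, so it did not follow HOXB8. HOXD11 had 25 counts in DL replicate 3, 22 in rest replicate 3 and 0 elsewhere. HOXC13 had 18 counts, all in rest replicate 1, and hoxa13a had 59.1 of its counts there, with 3.17 counts over all DL libraries. The genes hoxb1b and hoxb6b had 1 count each in DL and 49 and 24 counts in the rest, and both had none in rest replicate 3. For hoxb6b, 23 of the 24 were in rest replicate 1.

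Where a symbol stood on 2 rows, the rows below the filter had few counts. HOXB5_ENSDARG00000054030 stood at 0.417, 0 and 0.0946 CPM in DL and at 0.365, 1.14 and 0.339 CPM in the rest. HOXC6_ENSDARG00000101954 had 14 counts in DL and 34 in the rest. HOXA11_ENSDARG00000007009 and HOXA11_ENSDARG00000104162, of the paralog group known from the mouse embryonic kidney, had 9 and 5 counts in DL and 52 and 37 in the rest. HOXC12_ENSDARG00000103133 had 9 counts, all in DL replicate 1, and 28, all in rest replicate 1. The low genes hoxc1a, hoxa2b, HOXC4, hoxa10b, HOXD10, hoxc11b and hoxa13b, had 9 to 37 counts in DL and 3 to 31 in the rest.

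**Figure D4:**
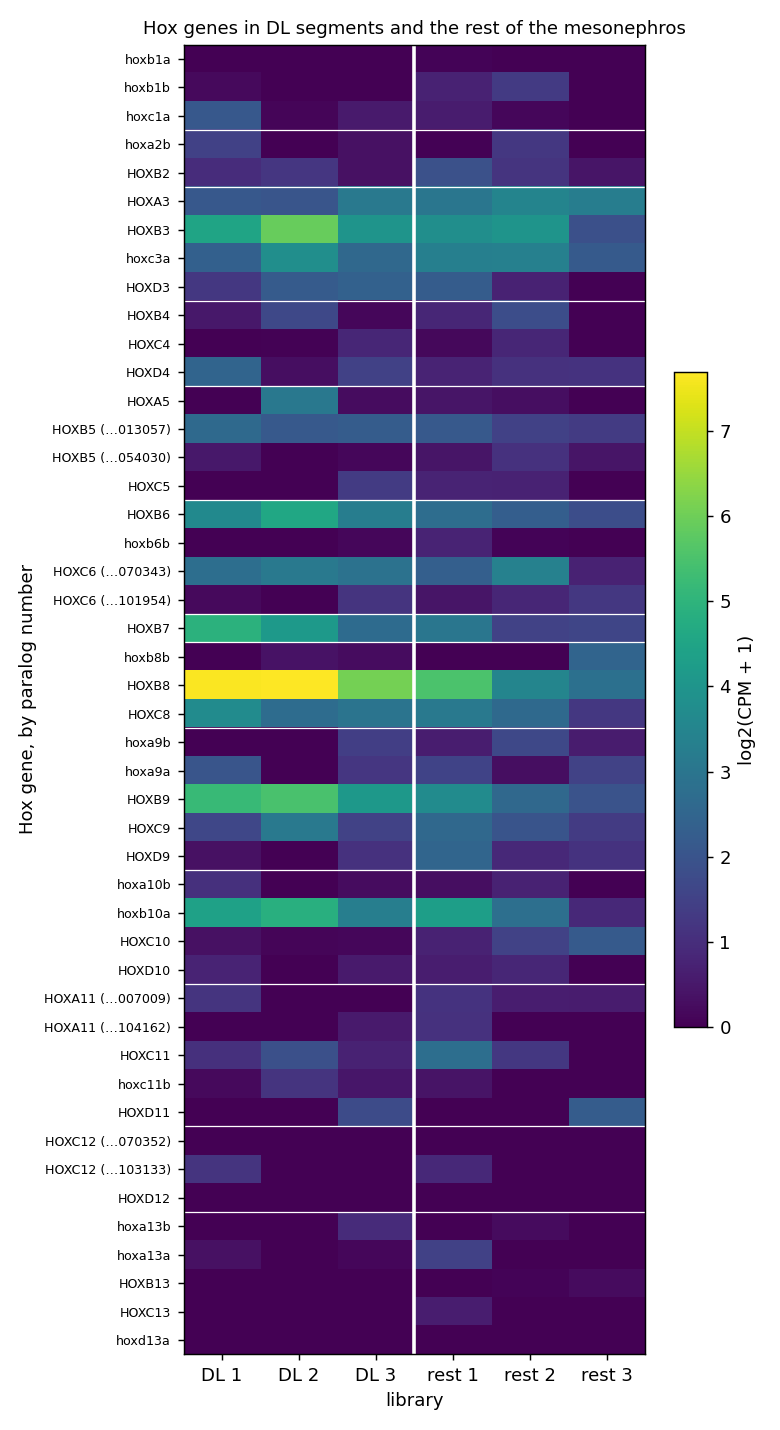
The Hox genes reported individually (rows, by paralog number) in the 3 DL and 3 rest libraries (columns), coloured by log2(CPM + 1); levels are not per length, so colours compare libraries within a row. HOXB8 is brightest in DL, at 67.0 to 206 CPM, and rows of paralog numbers 12 and 13 stay dark in both groups.

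The number of Hox genes detected did not follow depth or group. At least 1 count was seen for 32, 24 and 38 Hox genes in DL libraries 1 to 3 and for 39, 36 and 25 in rest libraries 1 to 3. The deepest library, DL replicate 2, had the fewest. After each library was thinned to 9320548 counts the numbers were 31, 22 and 38 in DL and 38, 36 and 25 in the rest. In all, 16 Hox genes had a count in every library.

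Hox proteins bind DNA together with PBX and MEIS cofactors. Of 6 genes of the PBX family 5 were tested and 0 were called or had an unadjusted p under 0.05. Over all genes tested, edgeR called 0.0644% higher in DL and 0% lower, and 4.09% and 2.73% had an unadjusted p under 0.05. The median log2 fold change of the PBX genes tested was -0.08. The gene with most counts, pbx4, a Pbx gene of zebrafish hindbrain patterning, stood at 56.4, 31.7 and 39.9 CPM in DL and at 32.6, 51.9 and 50.3 CPM in the rest, with overlapping groups. The gene with the largest change in the list, pbx1b, stood at 0.556, 0.945 and 1.70 CPM in DL and at 3.29, 6.44 and 4.41 CPM in the rest, without overlap (log2 fold change -2.13 ± 1.006 SE, edgeR adjusted p = 0.748, unadjusted p = 0.0567). Of 6 MEIS and PKNOX genes found 5 were tested and likewise 0 passed either threshold. MEIS1 stood at 18.2, 11.3 and 21.8 CPM in DL and at 26.7, 33.9 and 32.5 CPM in the rest. Every DL library was below every rest library for MEIS1, with a log2 fold change of -0.86 ± 0.46 (SE; edgeR adjusted p = 0.820).

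Of 22 genes found of the Pax-Eya-Six network of kidney development 14 were tested, and 1, PAX8, was called higher by edgeR. Log2 fold changes were positive for 6 of the 14 and negative for 8. Their median was -0.23, against -0.07 over all genes tested, so the list as a whole was not higher in DL. Over all genes tested, edgeR called 0.0644% higher in DL. PAX8, a factor of the nephric lineage, stood at 123.8, 75.8 and 43.1 CPM in DL and at 6.36, 5.74 and 6.95 CPM in the rest, with a log2 fold change of 3.67 ± 0.52 (SE; edgeR adjusted p = 0.0419). Both PAX2 rows had an unadjusted p under 0.05. PAX2_ENSDARG00000028148, which in mouse acts with Hox11 and Eya1, stood at 123.4, 103.1 and 99.1 CPM in DL and at 72.2, 33.1 and 13.6 CPM in the rest (log2 fold change 1.45 ± 0.57 SE, edgeR adjusted p = 0.597). PAX2_ENSDARG00000032578 stood at 3.06, 4.95 and 1.80 CPM in DL and at 0.0609, 0 and 0.169 CPM in the rest (5.60 ± 1.65 SE, edgeR adjusted p = 0.355). EYA1, SIX2 and six2b, of nephron progenitors, did not pass the filter. The highest EYA1 values were 2.93 CPM in DL replicate 3 and 5.08 CPM in rest replicate 3.

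Regulators of Hox genes showed 0 calls, where edgeR called 0.0644% of all genes tested higher in DL and 0% lower. With an unadjusted p under 0.05, 4.09% of all genes tested were higher in DL and 2.73% lower. Cdx factors switch on Hox genes in the embryo, and cdx4 had 0 counts in all 6 libraries; none of the 4 Cdx and ParaHox genes found passed the filter. The cluster-end genes evx1, EVX2 and eve1 reached at most 0.704 CPM in any library and were not tested. Polycomb genes keep Hox genes silent. The list of these genes, which also holds demethylase genes that oppose them, was tested at 27 of 27. In it 0 had an unadjusted p under 0.05, and the median log2 fold change was -0.21. KDM6B, the Polycomb-opposing demethylase gene with most counts in that list, stood at 113.2, 142.5 and 270.6 CPM in DL and at 156.5, 292.2 and 184.8 CPM in the rest, with overlapping groups. All 15 Trithorax and MLL genes, which keep Hox genes active, were tested. The 1 with an unadjusted p under 0.05 was WDR5, at 10.6, 3.89 and 4.26 CPM in DL and 23.5, 11.5 and 13.9 CPM in the rest (log2 fold change -1.40 ± 0.62 SE, edgeR adjusted p = 0.701). The MLL gene kmt2a, with most counts in that list, stood at 130.5, 230.7 and 140.2 CPM in DL and at 192.2, 323.8 and 98.9 CPM in the rest.

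Retinoic acid induces Hox genes of the head end. Of 23 genes of this pathway 19 were tested and 0 were called, with 15 negative log2 fold changes and a median of -0.40. Over all genes tested, edgeR called 0.0644% higher in DL and 0% lower, and the median log2 fold change was -0.07. CRABP2_ENSDARG00000030449, a retinoic acid binding protein gene, stood at 2.36, 1.89 and 5.58 CPM in DL and at 6.27, 23.5 and 14.4 CPM in the rest, without overlap, with a log2 fold change of -2.17 ± 0.72 (SE; edgeR adjusted p = 0.460). ALDH1A2, which makes retinoic acid and had the highest mean of the list, stood at 31.8, 20.2 and 30.4 CPM in DL and at 70.1, 28.4 and 47.8 CPM in the rest, with a log2 fold change of -0.83 ± 0.47 (SE; edgeR adjusted p = 0.845).

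Blood cells also sit in the mesonephros, and their markers varied within both groups. The myeloid list summed to 77.0, 557 and 199.5 CPM in DL and to 350.4, 1777 and 153 CPM in the rest, and the blood progenitor list to 116, 212.5 and 245 CPM in DL and to 333, 334 and 202 CPM in the rest. HOXB4, used in mammals to expand blood stem cells, was highest in the same libraries as the myeloid list, with 2.19 CPM in DL replicate 2 and 2.49 CPM in rest replicate 2. The other libraries had 0 to 0.791 CPM of HOXB4. HOXB3, which may share reads with HOXB4, was highest of each group in the same libraries. It stood at 58.9 CPM in DL replicate 2 and 14.9 CPM in rest replicate 2. The genes hoxc3a and HOXC6_ENSDARG00000070343 were highest of each group in these libraries too, so the pattern was not particular to HOXB4. The part of shared reads in the HOXB4 values was not tested. HOXB4 did not follow the blood progenitor list in DL, where that list was highest in replicate 3, with HOXB4 at 0.0946 CPM. In rest replicates 1 and 2 that list was nearly equal, at 333 and 334 CPM, with HOXB4 at 0.791 and 2.49 CPM. The part of blood cells in these values was not tested.

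Some of these genes may share reads. In RefSeq's gene models (assembly GRCz12tu, used here for names and neighbours only) the span of hoxb3a overlaps hoxb4a, hoxb5a and hoxb6a, and the span of hoxc3a overlaps 5 other HoxC genes. The same holds for hoxa3a with hoxa4a and hoxa5a, for hoxd3a with hoxd4a and for hoxb1b with hoxb5b and hoxb6b. No strand setting is given for the counting, so values of HOXB3, hoxc3a, HOXA3, HOXD3, HOXD4 and hoxb1b, and of the genes they overlap, are uncertain against each other. Fractional counts, which arise when a read is divided between genes, were seen for 9 of the 47 Hox genes. HOXB8 in 3 libraries and HOXB9 in 5 libraries were among them. At most 4 digits are kept, so a count with 4 digits before the point cannot show a fraction. Such counts were those of HOXB8 in DL replicates 1 and 2 and rest replicate 1, and of HOXB3 and HOXB9 in DL replicate 2.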

How the data were processed

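The authors deposited 1 table of estimated counts per Ensembl gene for 6 libraries; some are fractional, and at most 4 digits are kept. Aligner, counter and genome build: not given in the sources used here. Per the labels' protocols, the kit was NuGEN's Ovation Single Cell RNA-seq System. All columns were assigned by name. Replicates are numbered in order of deposition, and the numbers were not used to pair libraries. Symbols came from a table of identifiers and matched 26121 of 31953 genes.

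Counts were rounded, filtered with filterByExpr by group (17083 genes), scaled by TMM and tested with edgeR 4.0.16 (quasi-likelihood F test, robust; R 4.3.3), with Benjamini-Hochberg adjustment over all genes tested. Fold changes are DL minus rest. Each standard error divides the size of the log2 fold change by the root of its F value. CPM values use the TMM-scaled library size. Alternatives were DESeq2 1.42.0, limma-voom (limma 3.58.1), other scalings and filters, thinning and leaving out libraries. The edgeR procedure was also run on simulated data for the 17083 genes, which were not filtered again on low counts. The changed genes were drawn from those with an average log2 CPM above 1, so the results do not cover Hox genes below that level. The procedure recovered 3 of 50 genes changed 4-fold, 18 of 50 changed 8-fold, 33 of 50 changed 16-fold and 44 of 50 changed 32-fold. In the same simulated data 7 unchanged genes were called. A Hox gene that was not called may therefore still differ between the groups. Full values are given for tested Hox genes with an unadjusted p under 0.05, without overlap between groups or among the 10 with the highest mean CPM, and for others of interest, chosen after their values were seen. The Hox genes and the lists of partners, regulators and cell type markers were chosen with earlier results of these data known. List members were matched by symbol, or else in capitals with the final a or b dropped. Intervals and limits for 0 counts (3 counts) cover counting error only, since reads carry no molecular identifiers. No sequences were used. Values of 1 Hox gene that did not pass the filter are not reported here, and it stays in the sums and counts.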

Additional observations from a re-analysis of the deposited data

How the results depend on the processing

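The log2 fold changes of HOXB3, HOXB5_ENSDARG00000013057, HOXB6, HOXB7, HOXB8, HOXB9, hoxb10a, HOXD3, HOXA3, HOXD9 and HOXC10 kept their sign under all 13 alternatives. Over these, the log2 fold change ran from 1.497 to 2.98 for HOXB9, from 1.28 to 3.16 for HOXB7, from 1.28 to 2.16 for HOXB6, from 0.83 to 2.001 for HOXB3 and from 0.28 to 2.42 for hoxb10a. DESeq2 called 233 genes higher and 58 lower, 2 of the higher ones Hox genes. Limma-voom called 6 genes higher, scaling by library totals alone 1, the loosest filter 99 higher and 7 lower, and dropping both DL replicate 1 and rest replicate 3 called 0. Leaving out 1 library gave 0 to 51 genes higher and 0 to 2 lower, the highest of both without DL replicate 3. It gave 3 to 6 Hox genes higher at an unadjusted p under 0.05, and 0 to 1 lower. That unadjusted count was 1 higher and 0 lower with scaling by library totals, 0 lower with limma-voom and with the loosest filter, and 3 higher and 2 lower with DL replicate 1 and rest replicate 3 both dropped. The cause was not tested.

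With scaling by library totals, no Hox gene had every DL value above the rest (0 genes), the summed CPM of HoxA, HoxC and HoxD averaged 47.2 in DL and 67.0 in the rest, and that of paralog numbers 1 to 4 averaged 48.2 in the rest. The sign of the log2 fold change turned there for hoxc3a (-0.47), HOXC5 (-0.43), HOXC6_ENSDARG00000070343 (-0.17), HOXC8 (-0.12), hoxa9a (-0.64) and HOXC9 (-0.26). It turned with limma-voom for hoxc3a (-0.074), HOXD4 (-0.18), HOXC5 (-1.51), hoxa9a (-1.45) and HOXC11 (0.19). With DL replicate 1 and rest replicate 3 both dropped it turned for HOXC8 (-0.045) and hoxa9a (-0.74). Leaving out 1 library moved HOXB2 between -1.24 and 0.10, hoxc3a between -0.66 and 0.35 and HOXB4 between -2.12 and 1.104. It moved HOXC5 between -6.11 and 0.70, hoxa9b between -7.29 and 0.098, hoxa9a between -0.99 and 0.72, HOXC9 between -0.70 and 0.76 and HOXC11 between -1.46 and 1.06. None of these genes was called in any of these settings.

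Leaving out any 1 library moved the mean HoxB, HOXB8 and paralog 5 to 8 shares of Hox counts by less than 1 SD of their group. With HOXB8 left out of both counts, chosen after the data were seen, the mean HoxB share was 67.8% in DL and 44.3% in the rest, and that of paralog numbers 5 to 8 was 32.4% in DL and 27.0% in the rest. Depth limits the genes with few counts. The 25 Hox genes below the filter were too sparse for a comparison, and rest replicate 3 had 322 Hox counts in all. No paired analysis was possible because the labels number the libraries in 1 run over both groups, so the groups share no replicate number, and no label ties a DL library to a rest library.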
